A study of Drosophila melanogaster with 13 samples.

Results

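The sites described here are the listed variable sites of *Drosophila melanogaster* that lie on none of the chromosomes X, 2L, 2R, 3L, 3R and 4. They were chosen by the sequence name alone, and they number 31757 of 1679136 distinct sites (1.89%) over the 9 tables analysed. They fall on 1105 sequences, namely the Y chromosome, the mitochondrial genome, a ribosomal DNA (rDNA) sequence and unplaced or partly placed scaffolds, of which 1060 are named only by a number. All 1105 sequences were matched by name to the dm6 reference in RefSeq, and 0 positions lay past the end of their sequence.

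The DNA came from whole adult females of the inbred line D907 and of Mix, an outbred population made by mixing the inbred lines D208, D437, D820 and D907. Each population was sequenced as 1 pool of 100 females (Pool-seq). The assimilated populations were selected for ectopic wing veins (EV) under pupal heat shock and afterwards without it. The nonassimilated populations were taken from control flies and selected for EV without heat shock. Control flies were kept with neither heat shock nor selection, and the ancestral population is called P0. Mix was selected in 2 experiments, each with a P0 pool of its own, and D907 in 1, which gives 12 pools. The authors started the second Mix experiment from the same mixed population, some generations after the first. Each table pairs a derived pool with P0 of the same line or experiment, so the 3 derived pools of an experiment share 1 P0 pool. With 1 pool per population a test compares pools and not replicate populations, and a line selected once is 1 population.

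Most of these sequences come from heterochromatin, the compact and repeat-rich DNA around centromeres and on the Y chromosome, where one assembled copy of a repeat can collect reads from many copies in the genome. The rDNA encodes ribosomal RNA in tandem arrays on X and Y. The mitochondrial genome is passed on by mothers and is present in many copies per cell, and females carry no Y chromosome. An allele share on such a sequence is therefore a share of reads and need not be an allele frequency at 1 locus.

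The mitochondrial sites are shown first, because 9 of them passed the threshold used below in at least 1 comparison and lie in genes of known function. Each line below gives 25 bases of the plus strand of the RefSeq dm6 mitochondrial genome, in lower case with the base at the listed site in capitals. Sites 519, 4422, 5063, 11383, 11438 and 11467 lie in coding sequence, sites 8184 and 8192 in the histidine tRNA gene and site 13195 in the large ribosomal RNA gene. The tables do not name the alleles, so the capital is the base of the reference and the other allele is not known.
site 519: gaatcttttacaTccataattatta
site 4422: ggatgaattaatCatacacaacata
site 5063: agtttatcacccGctattgaattag
site 8184: accacaaattagTattttttttaaa
site 8192: ttagtattttttTtaaactatttaa
site 11383: agttattgcattAgttttatcaatt
site 11438: ttaagaaaattcCgagggattcaat
site 11467: tcctattaatcaAgtaatattctga
site 13195: attttagcttttTgactaaaaaata

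Of the 81 mitochondrial sites, 58 lay in protein-coding genes, and 57 of these could be placed in a reading frame, with 22 at codon position 1, 13 at position 2 and 22 at position 3. A further 16 lay in the origin region, 4 in ribosomal RNA and 3 in tRNA genes, and 16 of the 38 annotated mitochondrial genes held at least 1 site. Every table listed 29 of these sites. Among these were 13 sites in CoI, CoII and CoIII, the genes of the core subunits of cytochrome c oxidase, and 12 of the 13 were at codon position 3.

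At site 5063 in mt:CoIII (4736 to 5524), codon position 1, the alternative share in Mix experiment 1 was 27.8% of 895 reads in the assimilated pool, 96.4% of 795 in the nonassimilated pool, 0% of 1794 in the control pool and 35.3% of 439 in P0. In Mix experiment 2 it was 100% of 159 reads in the assimilated pool, 0% of 218 in the nonassimilated pool, 8.97% of 1829 in the control pool and 18.8% of 754 in P0. The allele that nearly all reads of the nonassimilated pool carried in experiment 1 was thus seen in no read of that population's pool in experiment 2. Every adjusted p here comes from Fisher's exact test (two-sided), Bonferroni-adjusted over all sites of the table. The test counts each read as independent, although a pool holds 100 females, so it can overstate the support at deep sites. Against P0 the adjusted p of this test was 3.28e-121 for the nonassimilated and 3.24e-115 for the control pool of experiment 1. It was 1.60e-87 for the assimilated and 1.21e-11 for the nonassimilated pool of experiment 2. The assimilated pool of experiment 1 (adjusted p = 1, exact test) and the control pool of experiment 2 (1.49e-05) did not pass the threshold of 1e-05. The D907 pools had 100% alternative reads throughout.

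Site 4422 in mt:ATPase6 (4062 to 4736), which encodes a subunit of the ATP synthase, had its alternative allele in other pools. In experiment 1 its share was 0% of 874 reads in the assimilated, 0% of 870 in the nonassimilated, 62.7% of 2051 in the control pool and 26.6% of 399 in P0. In experiment 2 it was 0% of 86 reads in the assimilated, 100% of 219 in the nonassimilated, 18.0% of 1955 in the control pool and 42.5% of 815 in P0. All 6 derived pools differed from their P0, with adjusted p between 1.17e-62 in the nonassimilated pool of experiment 2 and 6.78e-14 in the assimilated pool of experiment 2. The assimilated pools fell in both experiments, while the nonassimilated and control pools each moved one way in experiment 1 and the other way in experiment 2.

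Sites on this genome are linked, and the shares fell into a few sets. Site 519 in mt:ND2 (240 to 1263), a subunit of complex I, had 25.5%, 96.0%, 0% and 30.2% alternative reads in the assimilated, nonassimilated, control and P0 pools of experiment 1 and 100%, 0%, 8.96% and 15.5% in those of experiment 2, close to site 5063 in each pool. Site 11438 in mt:Cyt-b (10499 to 11635), the gene of cytochrome b in complex III, had 0%, 0%, 66.9% and 23.3% in experiment 1 and 0%, 99.4%, 19.6% and 43.5% in experiment 2, close to site 4422. Site 11467 in the same gene had 73.0%, 0%, 30.7% and 25.2% in experiment 1 and 0%, 0%, 40.0% and 20.3% in experiment 2. These are 3 different patterns over the 8 Mix pools. Site 13195 in mt:lrRNA, the large ribosomal RNA, had 65.4%, 0%, 32.3% and 33.3% in experiment 1 and 0%, 0%, 37.5% and 26.5% in experiment 2, in the order of site 11467. The shares at 5063, 4422 and 11467 summed to 101%, 96.4%, 93.5% and 87.1% in the assimilated, nonassimilated, control and P0 pools of experiment 1. In experiment 2 the sums were 100%, 100%, 66.9% and 81.6%. These sums are a description of sites chosen after their values were seen.

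Sites 4422, 11438, 11467 and 13195 were listed in the 6 tables of Mix alone, so they could not pass in the inbred line D907. Its mitochondrial sites past the threshold were 8184 and 8192 in the histidine tRNA gene (8141 to 8206, minus strand). Site 8184 had 95.4% alternative reads in the assimilated, 0% in the nonassimilated, 41.2% in the control pool and 63.7% in P0. Site 8192 had 0%, 100%, 57.9% and 35.0% in the same pools. The assimilated and the nonassimilated pool had thus moved to opposite alleles at both sites, and the shares of the 2 sites summed to 95.4%, 100%, 99.0% and 98.6%. At 8184 the adjusted p was 4.37e-33 for the assimilated and 2.48e-59 for the nonassimilated pool, and at 8192 it was 3.79e-59 and 1.85e-62. The control pool did not pass at either site (0.129 and 0.0362). In experiment 1 of Mix site 8184 had 27.2%, 96.3%, 0% and 30.7% in the assimilated, nonassimilated, control and P0 pools, and site 8192 had 0% in all 4. In experiment 2 site 8184 had 100% of 18 reads in the assimilated pool, 0% in the nonassimilated and control pools and 10.6% in P0. Site 11383 in mt:Cyt-b passed only in the assimilated pool of experiment 2, with 14.5% alternative reads.

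The mitochondrial sites past the threshold numbered 2 of 47 (4.26%) in the assimilated, 2 of 43 (4.65%) in the nonassimilated and 0 of 45 in the control pool of D907, where 4.38%, 1.84% and 0.0379% of all sites were. In Mix experiment 1 they were 3 of 62 (4.84%), 7 of 57 (12.3%) and 4 of 47 (8.51%), where 14.2%, 21.4% and 0.750% of all sites were. In experiment 2 they were 6 of 56 (10.7%), 4 of 61 (6.56%) and 4 of 60 (6.67%), where 26.2%, 20.4% and 0.356% of all sites were. The mitochondrial share was thus below that of all sites in the selected pools of Mix and above it in the control pools of Mix. These calls involved 9 positions, and control pools of Mix, which were not selected, are among them. Mitochondrial depth moved between pools too: over the 29 sites of all 9 tables the median depth, divided by the median over 2L, 2R, 3L and 3R, was 16.8 in the assimilated, 7.48 in the nonassimilated, 14.6 in the control pool and 18.0 in P0 of D907. For Mix experiment 1 it was 9.57, 8.93, 21.9 and 4.11, and in experiment 2 it was 1.40, 2.27, 22.9 and 8.83. The part of this depth in the shares was not tested.

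**Figure D1:**
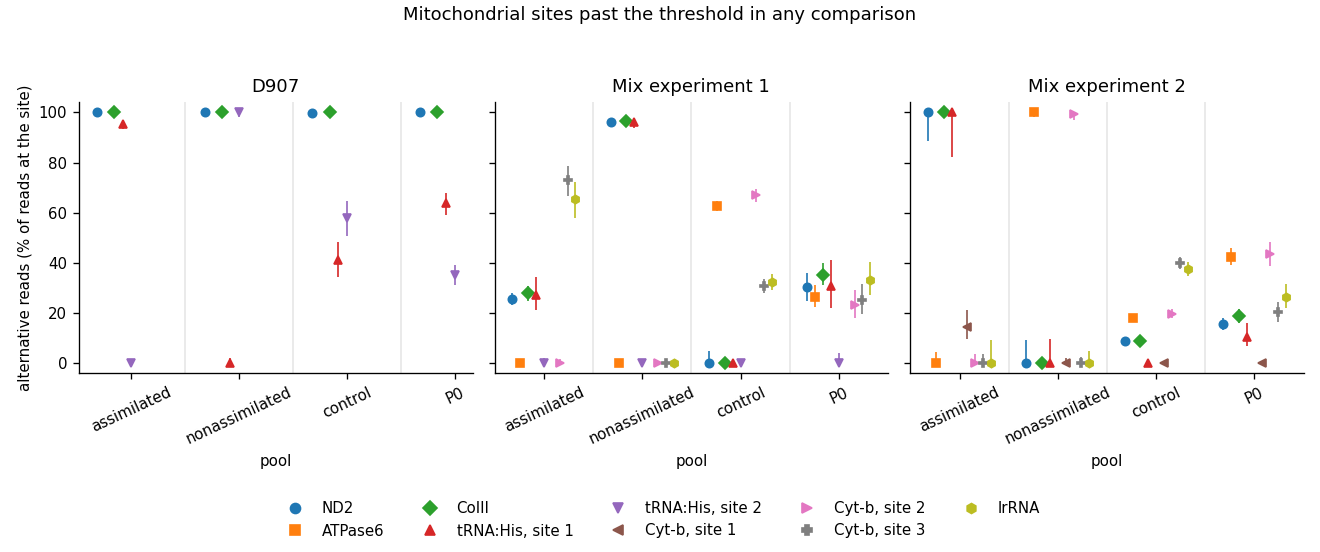
Share of reads with the alternative allele (%) at the mitochondrial sites past the threshold, by pool and by line or experiment, where points are pools and vertical lines Wilson 95% intervals. The CoIII site (5063) stands at 96.4% in the nonassimilated pool of Mix experiment 1 and at 0% in that of experiment 2.

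Over all 12 pools, the autosomal median depth lay between 75 and 88 reads. The ancestral pool of Mix experiment 1 stood apart from the other 11 pools on the sex chromosomes. Its median depth at X sites was 0.805 of the autosomal median, against 0.915 to 0.960 in the others. Its depth at Y sites was 0.328, against 0.140 to 0.213. The cause was not tested. Every comparison of experiment 1 with P0 uses this pool. With the control pool in its place 132 member sites were past the threshold in the assimilated and 174 in the nonassimilated pool, against 133 and 248 with P0. The control baseline covers only sites listed for both pools, with the adjustment over these sites. The counts thus differ in sites and adjustment as well as in baseline, and the share over all sites was not computed.

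The Y chromosome and the scaffolds placed on it held 4272 sites on 105 sequences, 2956 of them on the Y sequence itself. The labels give all pools as female, and reads were nevertheless listed at these sites in every pool, at the low depth given above. What the reads at Y sites came from was not tested. Per table the Y sequence held 1016 to 1941 sites, of which 0 or 1 lay in coding sequence, 183 to 342 in the span of a protein-coding gene and 806 to 1510 outside any annotated gene. The genes with most sites were kl-3 (189), Ppr-Y (174), kl-5 (79) and kl-2 (63), all expressed in the male germ line, where the kl genes encode dynein heavy chains of the sperm tail. WDY had 27 sites and PRY 18. These counts cover the whole span of each gene, introns included, which for kl-3 runs from 336381 to 563165.

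Alternative shares on the Y sequence in P0 of Mix experiment 1 were low as well. Over the sites of each table they averaged 52.1% in the assimilated pool and 34.1% in P0, 53.4% in the nonassimilated pool and 33.0% in P0, and 59.7% in the control pool and 35.7% in P0. In Mix experiment 2 the derived pools averaged 58.2% to 62.1% and P0 57.0% to 58.7%. In D907 they averaged 69.1% to 70.2% in derived pools and 67.6% to 70.5% in P0. The pool with the highest Y depth was thus also the pool with the lowest alternative shares there.

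A numbered scaffold of the Y, 211000022280742 (12513 bases), is an example that was chosen after its values were seen. Its median depth in P0 of experiment 1 was 3.93 times the autosomal median, 342 reads, and at most 0.276 in the other 11 pools. At position 10042 the alternative allele was carried by 29 of 35 reads in the assimilated pool (82.9%), 72 of 87 in the nonassimilated pool (82.8%), 23 of 29 in the control pool (79.3%) and 23 of 287 in P0 (8.01%). At 11835 it was carried by 50 of 51, 51 of 65 and 24 of 28 reads in these derived pools and by 0 of 263 in P0. At 10042 all 3 derived pools stood above P0, with adjusted p between 3.25e-35 and 6.26e-11. They share that 1 P0 pool.

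Y_mapped_Scaffold_18 (34521 bases, 85 sites) was covered at 0.908 to 3.10 times the autosomal median, unlike the Y sequence. At position 26244 the alternative share was 51.6% in the assimilated, 85.0% in the nonassimilated, 44.8% in the control pool and 12.2% in P0 of Mix experiment 2. In experiment 1 it was 23.6%, 0%, 0% and 9.87%, and in D907 it was 16.1%, 0%, 0% and 0%. The nonassimilated pools thus moved in opposite directions, to 85 of 100 reads in experiment 2 (exact test, adjusted p = 5.06e-29) and to 0 of 368 reads in experiment 1 (3.46e-06). At 26563 the nonassimilated pool had 16.2% alternative reads against 87.5% in P0 in experiment 2, and 100% of 499 reads against 84.9% in experiment 1. These sites were named after their values were seen.

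**Figure D2:**
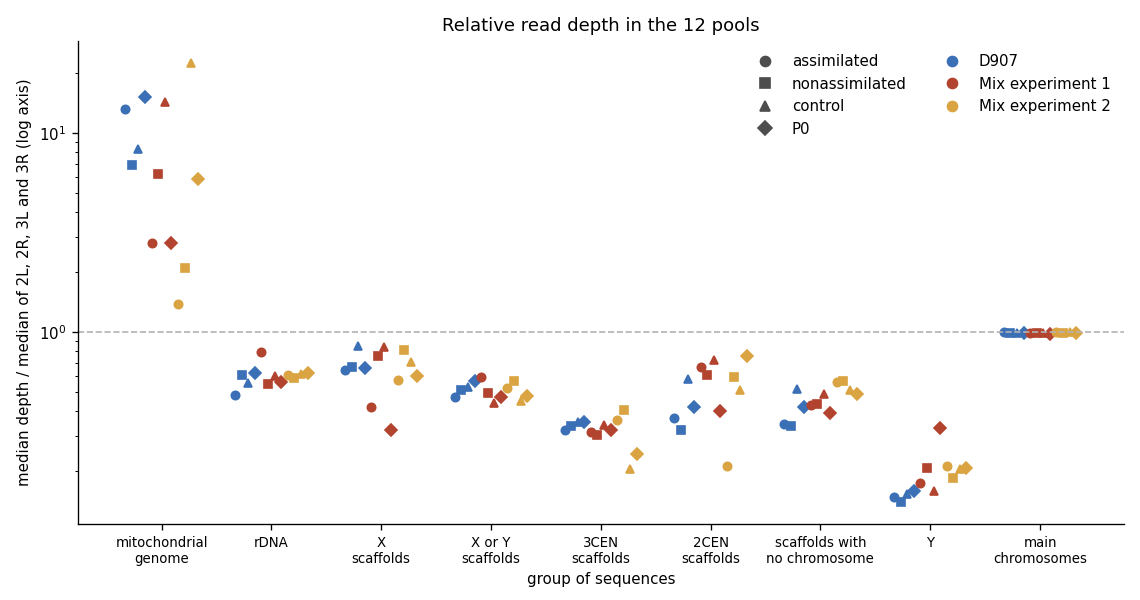
Median depth at listed sites divided by the autosomal median of the same pool, by group of sequences, 1 point per pool, over sites listed in all 3 tables of the line or experiment, so that the mitochondrial values differ from those over the 29 sites above. The ancestral pool of Mix experiment 1 is highest on Y (0.328) and lowest on X scaffolds (0.322).

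Scaffolds placed on X held the most members, 15076 sites (47.5%) on 434 sequences, at 15.9 sites per kb. Scaffolds with no chromosome held 7197 sites (22.7%) on 380 sequences at 4.33 per kb. Scaffolds of the chromosome 3 centromere (3CEN) held 3483 sites at 5.30 per kb, those of X or Y 1172 at 6.49 per kb and those of the chromosome 2 centromere (2CEN) 225 at 1.50 per kb. The rDNA held 251 sites, and the Y group had 1 per kb, the lowest density of the 8 groups. Over all sequences the median was 18.0 sites, 73 sequences had 1 site, and the 30 sequences with at least 100 sites held 25.6% of the members.

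Listing was uneven between tables. Each table held 12072 to 19402 members, 5780 sites (18.2%) were in all 9 tables, and 4180 (13.2%) were in 1. Sites that a table does not list were left out of its comparison.

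Depth at the members was low and uneven. The median over members was 0.368 to 0.580 of the autosomal median in the 12 pools (median 0.472), while the mean gave 0.847 to 1.28 (median 1.11). X scaffolds ranged from 0.322 in P0 of Mix experiment 1 to 0.847, X or Y scaffolds from 0.439 to 0.593, and scaffolds with no chromosome from 0.337 to 0.568. The centromeric groups ranged from 0.205 to 0.407 (3CEN) and from 0.213 to 0.756 (2CEN), and the rDNA from 0.483 to 0.797. Among the 8 sequences with most listed sites, X3X4_mapped_Scaffold_6 was covered at 1.53 to 2.73 and 211000022280465 at 1.11 to 1.70, whereas XY_mapped_Scaffold_7 was covered at 0.356 to 0.547.

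Each derived pool was compared with its P0 site by site. In D907, 106 of 15075 members (0.703%) were past the threshold in the assimilated pool, 61 with a higher and 45 with a lower alternative share, where 4.38% of all sites of that table and 4.46% of main-chromosome sites (3.11% higher and 1.34% lower) were. In the nonassimilated pool 117 of 16528 (0.708%) were, 51 higher and 66 lower, where 1.84% of all sites and 1.87% of main-chromosome sites (1.43% higher and 0.435% lower) were. In the control pool 164 of 16900 (0.970%) were, 59 higher and 105 lower, where 0.0379% of all sites and 0.0176% of main-chromosome sites (0.00643% higher and 0.0112% lower) were. The share of members called was thus below the share of all sites in both selected pools and above it in the control pool, where members were 54.5% of the 301 sites called in the whole table.

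In Mix experiment 1, 133 of 18328 members (0.726%) were past the threshold in the assimilated pool, 82 higher and 51 lower, where 14.2% of all sites and 14.4% of main-chromosome sites (9.65% higher and 4.73% lower) were. In the nonassimilated pool 248 of 19402 (1.28%) were, 138 higher and 110 lower, where 21.4% of all sites and 21.7% of main-chromosome sites (14.9% higher and 6.87% lower) were. In the control pool 98 of 17660 (0.555%) were, 40 higher and 58 lower, where 0.750% of all sites and 0.753% of main-chromosome sites (0.457% higher and 0.296% lower) were. Experiment 2 of Mix had 158 of 12072 (1.31%) called in the assimilated pool, 90 higher and 68 lower, where 26.2% of all sites and 26.5% of main-chromosome sites (17.2% higher and 9.26% lower) were. In its nonassimilated pool 118 of 15031 (0.785%) were, 61 higher and 57 lower, where 20.4% of all sites and 20.6% of main-chromosome sites (13.8% higher and 6.88% lower) were. In its control pool 54 of 15709 (0.344%) were, 25 higher and 29 lower, where 0.356% of all sites and 0.356% of main-chromosome sites (0.184% higher and 0.172% lower) were. The share of members called lay between 0.344% and 1.31% in all 9 comparisons, while the share over all sites ran from 0.0379% to 26.2%.

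The called members were mainly deep sites at which 1 of the pools had no alternative read, less so in the selected pools of Mix experiment 2. In D907 this held for 105 of 106, 114 of 117 and 162 of 164 called sites in the assimilated, nonassimilated and control pools. In Mix experiment 1 it held for 114 of 133, 203 of 248 and 90 of 98, and in experiment 2 for 108 of 158, 82 of 118 and 48 of 54. Their median depth, both pools added, was 902, 798 and 755 reads in D907, 657, 580 and 806 in Mix experiment 1 and 262, 439 and 830 in experiment 2. The median size of the change in alternative share at called sites, as a fraction of reads, was 0.117, 0.117 and 0.126 among members against 0.416, 0.361 and 0.447 on the main chromosomes in D907. In Mix it was 0.133 to 0.462 among members and 0.465 to 0.667 on the main chromosomes. The assimilated pool of experiment 2 had the highest of these medians among members, 0.462. With sites of at most 2 times the autosomal median depth alone, 10 to 77 members were past the threshold per comparison, against 54 to 248 with all depths. The highest, 77, was in the assimilated pool of Mix experiment 2, against 158 there with all depths. With counts scaled to a pool of 200 chromosomes, 5 to 62 members were past the threshold. With a 0 set to 10% of the reads, an alternative chosen after seeing the data, 8 to 79 were. The share of all sites past the threshold was not computed under these alternatives. Called sites at which 1 of the pools had no alternative read were counted among members alone.

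Low alternative shares were nearly absent from deep sites. Among 10626 pairs of a member site and a pool with at least 300 reads, 1367 had no alternative read, 1 had a share above 0 and under 5%, and the lowest share above 0 was 3.84%. On the main chromosomes 9771 such pairs held 930 with no alternative read and 0 with a share between 0 and 5%. The scale is not symmetric, since 120 of the pairs among members and 265 of those on the main chromosomes had a reference share under 5%. A listed 0 at a deep site is thus separated by a gap from the next listed share. How the gap arose was not tested.

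**Figure D3:**
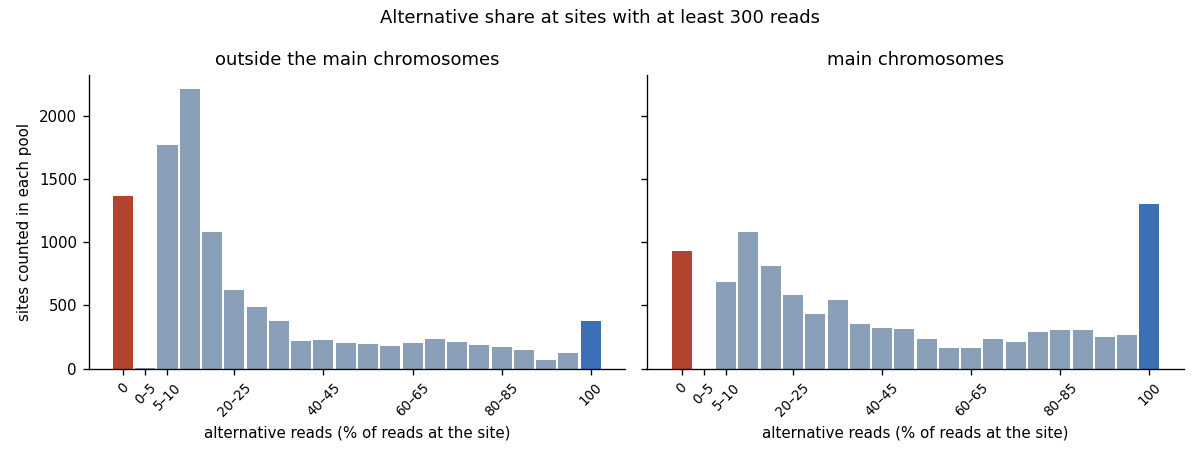
Number of pairs of site and pool with at least 300 reads by alternative share (%), for members and for main chromosomes. Both have a bar at 0 and almost none up to 5%.

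Sites with at least 300 reads in all 4 pools of a line or experiment show how often a 0 appeared in some pools. In D907 there were 843 such members, and 127 (15.1%) had no alternative read in some pools and alternative reads in others. For Mix experiment 1 these were 115 of 450 (25.6%), with 24 more at 0 in all pools, and in experiment 2 they were 41 of 294 (13.9%). The median of the highest share over the 4 pools was 10.3%, 10.1% and 9.84%. On the main chromosomes 6.65%, 23.9% and 23.3% of such sites had no alternative read in some pools and alternative reads in others.

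Of the 3 members with the lowest p in each comparison, those outside the mitochondrial genome all had a pool with no alternative read. At 211000022278224, position 1039, the alternative share was 37.6% of 962 reads in the assimilated, 35.1% of 740 in the nonassimilated, 0% of 3200 in the control pool and 34.1% of 1951 in P0 of D907. In Mix experiment 1 it was 0% of 1605, 0% of 975 and 0% of 1668 reads in the derived pools and 29.5% of 308 in P0. In experiment 2 it was 0% of 493 reads in the nonassimilated, 38.4% of 419 in the control pool and 0% of 1070 in P0. Shares of 29.5% to 38.4% thus stood in some pools and 0% in others, in selected and control pools alike. The adjusted p in the D907 control pool was 3.26e-312 (exact test), with each read counted as independent.

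X3X4_mapped_Scaffold_14, position 2817, was at 0 in 4 of the 12 pools. D907 had 11.2% of 1664 reads in the assimilated, 11.7% in the nonassimilated and 13.0% in the control pool, and 0 of 1903 in P0. Mix experiment 1 had 12.5%, 0%, 12.2% and 11.2% in the assimilated, nonassimilated, control and P0 pools, and experiment 2 had 0%, 12.1%, 0% and 12.3%. Where the alternative allele was seen, its share thus stayed within 11.2% and 13.0%. At 211000022280649, position 4238, shares of 43.8% to 63.1% stood in 10 pools, and 0 of 502 reads in the D907 control pool and 0 of 200 in P0 of Mix experiment 1 carried the allele. At 211000022280577, position 1586, the D907 pools had 48.0%, 0%, 54.3% and 0% in the order assimilated, nonassimilated, control and P0.

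At rDNA position 50502, outside annotated genes, 314 of 1732 reads in the assimilated pool (18.1%) and 318 of 2511 in the nonassimilated pool (12.7%) of Mix experiment 1 carried the alternative allele, against 0 of 1924 in P0. Fixation was counted among rDNA sites at an alternative share of 10% to 90% in P0 with at least 20 reads in both pools, where a site at 98% or more is fixed for the alternative and one at 2% or less for the reference allele. In experiment 1, 0 of 80 were fixed for the alternative and 18 (22.5%) for the reference allele in the assimilated pool, 14 of 76 (18.4%) and 14 (18.4%) in the nonassimilated pool, and 0 of 79 and 8 (10.1%) in the control pool. On the main chromosomes 15.9%, 22.7% and 1.82% of such sites were fixed for the alternative and 25.7%, 28.9% and 6.84% for the reference allele in these pools. In experiment 2, 18 of 65 rDNA sites (27.7%) were fixed for the alternative and 5 (7.69%) for the reference allele in the assimilated pool, 21 of 67 (31.3%) and 3 (4.48%) in the nonassimilated pool, and 0 of 65 for either allele in the control pool. The main-chromosome shares were 29.1%, 34.7% and 1.90% for the alternative and 33.6%, 37.9% and 9.44% for the reference allele. On the rDNA sequence 10 of 19 annotated rRNA genes and pseudogenes held sites, 114 distinct sites in all, most of them in 28SrRNA-Psi:CR40596 (16936 to 22940; 67 sites) and 28SrRNA-Psi:CR45851 (35941 to 38740; 30 sites). The Stellate and Su(Ste) copies, a multigene family of X and Y, held 53 sites in 11 of the 35 copies annotated on these sequences, and 0 of the 53 were past the threshold. Per comparison 0.344% to 1.31% of members and 0.0379% to 26.2% of all sites were. A count of 0 among 53 sites thus does not set this family apart from the other members.

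Few members changed in both Mix experiments. In the assimilated pools 8 of 8372 members listed in both experiments (0.0956%) were past the threshold in both in the same direction and 6 (0.0717%) in opposite directions, while 4.19% of main-chromosome sites were so in the same direction and 1.04% in opposite directions. In the nonassimilated pools they were 14 (0.149% of 9388) and 15 (0.160%), with 7.67% and 1.61% on the main chromosomes. In the control pools they were 6 (0.0598% of 10035) and 6 (0.0598%), with 0.0209% and 0.00365% on the main chromosomes. Counts for the same and the opposite direction were thus close to each other among members, while on the main chromosomes the same direction was the more common of the 2. Each of the same-direction members had a pool with no alternative read. On the main chromosomes this held for 15312 of 35030 (assimilated), 19382 of 62457 (nonassimilated) and 107 of 212 (control) same-direction sites. With sites of at most 2 times the autosomal median depth alone 0 members were called in the same direction, whichever the population. With each experiment as a stratum of a Cochran-Mantel-Haenszel test (replicate block, the paired form), 110 members (1.31%) passed in the assimilated, 122 (1.30%) in the nonassimilated and 63 (0.628%) in the control pools, where 25.6%, 23.9% and 1.19% of main-chromosome sites did. Of these members, 89, 87 and 52 had the same sign of change in both experiments. The test adds up the signed changes of the experiments, so opposite changes cancel and changes of the same sign are favoured. The sign was counted whether or not each experiment passed by itself, so these counts do not measure replication.

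Of the 5 same-direction sites with the strongest support in the assimilated pools, the pair at 4422 and 11438 is mitochondrial, as given above. At 211000022279732, position 1964, 78 of 799 and 88 of 919 reads carried the allele in the assimilated pools, against 0 of 928 and 0 of 870 in P0. The control pool of experiment 2 carried it in 56 of 597 reads (exact test, adjusted p = 3.37e-17), and the nonassimilated pools of both experiments and the control pool of experiment 1 in none. At 211000022280622, position 832, 0 of 153 and 0 of 136 reads carried it in the assimilated pools, against 31 of 62 and 88 of 178 in P0. In experiment 2 the nonassimilated (0 of 95 reads) and control (0 of 122) pools lacked it too, and both were past the threshold, while in experiment 1 it was carried by 45.6% and 38.5% of reads in these pools. In the nonassimilated pools the strongest was Y position 957083, with 0 of 892 and 0 of 1014 reads against 9.26% and 8.84% in P0. Its share was 7.70% to 10.3% in the remaining 8 pools. In the control pools the strongest were 211000022279703, position 2155, with 109 of 1120 and 50 of 496 reads against 0 of 991 and 0 of 844 in P0, and Y position 957179 with 0 of 1388 and 0 of 812 reads against 13.3% and 8.46%. X3X4_mapped_Scaffold_6, position 28619, had 0 alternative reads in both Mix P0 pools and 7.98% to 10.9% in the other 10 pools, D907 P0 included.

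Members kept more sites with both alleles in D907 than the main chromosomes did. Over 12946 members listed in all 3 tables of D907, both alleles were read at 75.4% of sites in the assimilated, 67.2% in the nonassimilated, 69.3% in the control pool and 76.4% in P0. On the main chromosomes the values were 8.38%, 10.7%, 20.9% and 21.3%. Mean 2pq, the expected share of heterozygotes from the alternative share, was 0.243, 0.217, 0.223 and 0.245 over members, with an SD over sites of 0.175 in the assimilated pool, and 0.0245, 0.0326, 0.0649 and 0.0773 over the main chromosomes. In this inbred line the members thus listed 3 or more times as much 2pq as the main chromosomes in each pool. Over all members listed for each pool, a wider set, the share with both alleles was 75.1% in the assimilated pool and 70.8% in P0. The assimilated pool was then taken over its own table and P0 over all 3 tables of the line. The site sets are unlike, so these values do not order the pools.

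In Mix the selected pools differed more from P0 on the main chromosomes than among members. Over 14411 members of experiment 1, both alleles were read at 56.0%, 61.3%, 69.5% and 68.1% of sites in the assimilated, nonassimilated, control and P0 pools, against 49.0%, 42.1%, 78.0% and 86.0% on the main chromosomes. Over 10513 members of experiment 2 the values were 65.5%, 65.0%, 73.2% and 82.7%, against 29.4%, 22.4%, 69.3% and 80.0%. Mean 2pq over members was 0.180, 0.194, 0.215 and 0.225 in experiment 1 and 0.220, 0.211, 0.234 and 0.274 in experiment 2. On the main chromosomes it was 0.166, 0.143, 0.289 and 0.326, and 0.0921, 0.0702, 0.235 and 0.280. The selected pools of Mix had less 2pq than P0 in both sets of sites, and the difference was smaller among members.

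**Figure D4:**
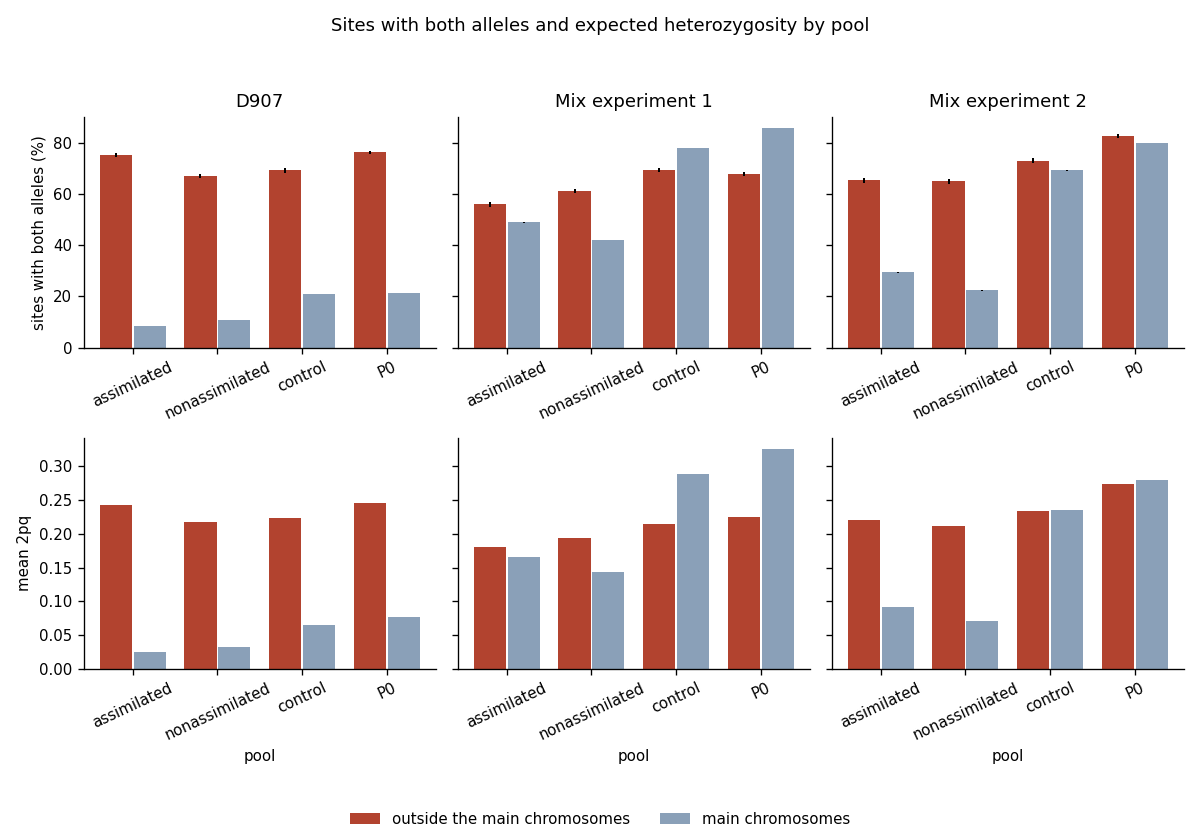
Share of sites with both alleles (%, upper row, with Wilson 95% intervals over sites as black lines) and mean 2pq (lower row) by pool, for members and main chromosomes. In D907 the member share is 67.2% to 76.4% and the main-chromosome share 8.38% to 21.3%.

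Fixation was set beside this by taking sites at 10% to 90% in P0 with at least 20 reads in both pools, and calling a site fixed at 98% or more or at 2% or less. Among members 8.36% were fixed in the assimilated, 9.66% in the nonassimilated and 9.10% in the control pool of D907, against 72.0%, 58.1% and 2.14% on the main chromosomes. For Mix experiment 1 the shares were 18.9%, 18.1% and 11.7%, against 41.6%, 51.6% and 8.66%. In experiment 2 they were 20.7%, 19.9% and 10.9%, against 62.7%, 72.6% and 11.3%. Fixation for the alternative allele made up a small part among members, 0.0761% to 4.37% of the sites. In D907, 485, 563 and 557 members had a share of 2% or less in the assimilated, nonassimilated and control pools. Those at 98% or more numbered 14, 11 and 10. Since a listed 0 is not shown to be absence, the members counted as fixed for the reference allele are not shown to have lost the other allele.

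The sequences differed in this. X3X4_mapped_Scaffold_6 (33320 bases), with the most listed sites, had 0 sites fixed for the alternative allele in any derived pool and a mean 2pq of 0.231 to 0.279 over the 12 pools. Unmapped_Scaffold_22 had a mean 2pq of 0.226 to 0.373 and Unmapped_Scaffold_60 of 0.110 to 0.316. On XY_mapped_Scaffold_7 mean 2pq ran from 0.0425 to 0.340 and on Unmapped_Scaffold_8 from 0.0411 to 0.166.

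On XY_mapped_Scaffold_7 (50625 bases, 424 sites), 80 sites were fixed for the alternative and 75 for the reference allele of 176 intermediate in P0 (88.1%) in the assimilated pool of Mix experiment 2. In the nonassimilated pool 62 and 61 of 183 (67.2%) were fixed, and in the control pool 1 and 19 of 170 (11.8%). Mean 2pq was 0.0425, 0.0753, 0.218 and 0.335 in the assimilated, nonassimilated, control and P0 pools. In experiment 1 the shares fixed were 40.4%, 21.8% and 2.65%, and mean 2pq was 0.208, 0.283, 0.340 and 0.312. In D907 mean 2pq was 0.0471 to 0.0558. In experiment 2 its shares fixed in the 3 derived pools thus stood nearer to those of the main chromosomes (62.7%, 72.6% and 11.3%) than to those over all members. At position 30528 the alternative share was 100%, 94.7%, 81.5% and 28.2% in the assimilated, nonassimilated, control and P0 pools of experiment 2 (exact test, adjusted p = 2.66e-07 for the assimilated pool), and 27.8%, 0%, 35.5% and 19.6% in those of experiment 1. At 32652 it was 100%, 95.7%, 58.3% and 26.8%, with adjusted p 6.20e-07 for the assimilated and 4.52e-06 for the nonassimilated pool. At 30865 it was 0%, 0%, 11.9% and 47.8%. The threshold was passed by 7 of 268 sites (2.61%) in the assimilated and 3 of 294 (1.02%) in the nonassimilated pool of experiment 2, where 26.2% and 20.4% of all sites passed it, and by 0 in the other 7 comparisons.

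Unmapped_Scaffold_8 (88768 bases, 203 sites) carries Gpa2, the gene of a glycoprotein hormone subunit, klhl10, a Kelch family gene known from spermatid development, and copies of transposable elements. The span of klhl10 (53442 to 85529) held 85 of the sites. In the assimilated pool of Mix experiment 2, 29 of 143 sites of the scaffold (20.3%) were past the threshold, where 26.2% of all sites were, 18 higher and 11 lower and 10 of them in the span of klhl10, and in the other 8 comparisons 0 were. At position 16273 the alternative allele was carried in experiment 2 by 44 of 44 reads in the assimilated pool against 5 of 52 in P0 (exact test, adjusted p = 4.45e-16), with 0% in the nonassimilated and control pools. At 20650 it was 100% in the assimilated, 0% in the nonassimilated, 16.3% in the control pool and 0% in P0 (exact test, adjusted p = 3.39e-14). At 80273 it was 0%, 100%, 84.0% and 82.4% (exact test, adjusted p = 3.12e-08 for the assimilated pool). The assimilated pool stood alone at these sites in experiment 2. Of the sites intermediate in P0, 18 of 30 (60.0%) were fixed in the assimilated, 54.8% in the nonassimilated and 13.3% in the control pool. In experiment 1 these were 34 of 50 (68.0%), 6.25% and 9.30%. At 20650 the shares of experiment 1 were 0%, 62.9%, 46.4% and 26.2%, and at 80273 they were 100%, 46.7%, 70.6% and 77.8%. At both positions the allele fixed in the assimilated pool thus differed between the experiments. The individual sites of both scaffolds were named after their values were seen.

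**Figure D5:**
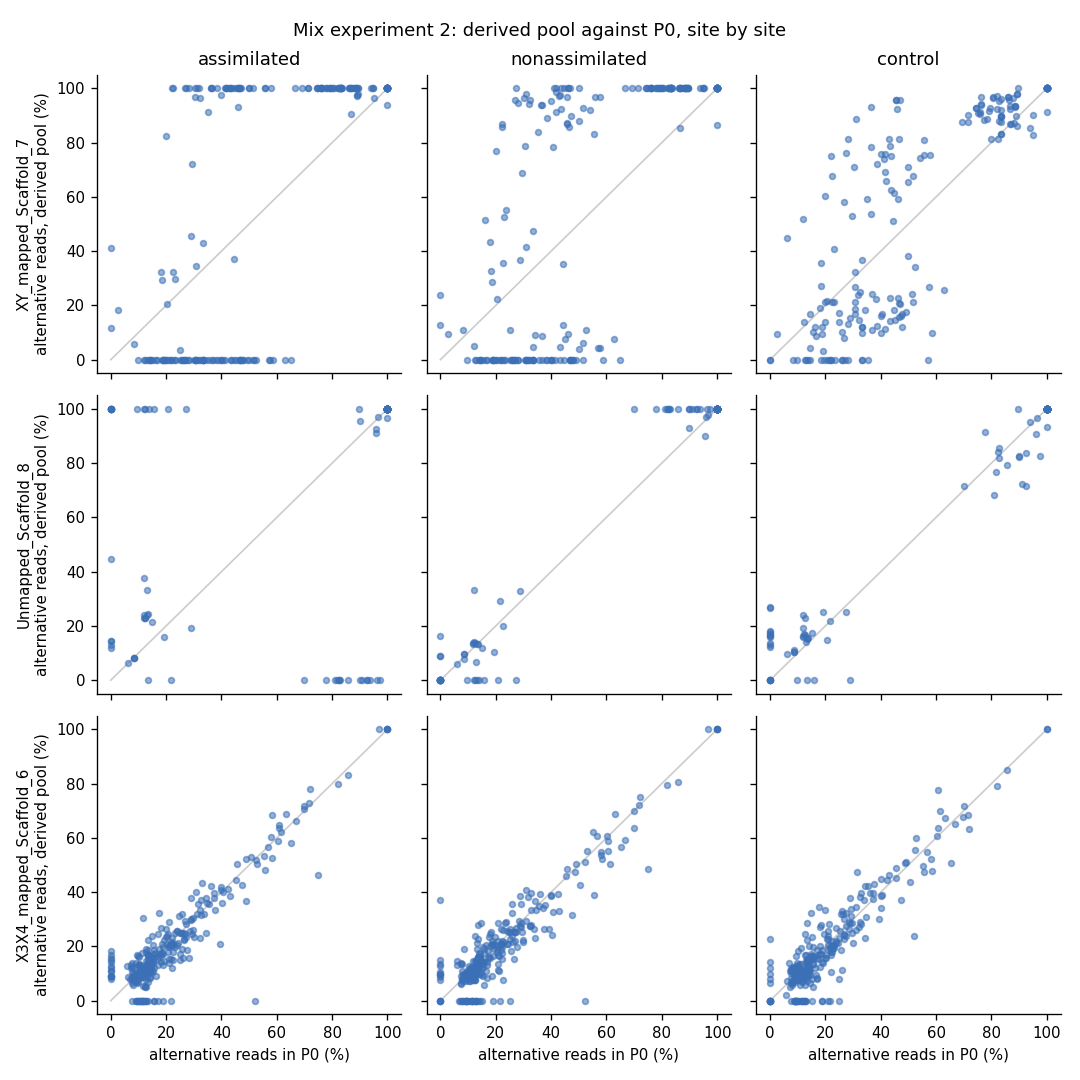
Alternative share (%) in the derived pool against P0 for each site of XY_mapped_Scaffold_7, Unmapped_Scaffold_8 and X3X4_mapped_Scaffold_6 (rows) in the 3 derived pools (columns) of Mix experiment 2, with a grey line where both are equal. On Unmapped_Scaffold_8 the 29 sites past the threshold all belong to the assimilated pool, with shares of 0% or 100% at the positions named, and the points of X3X4_mapped_Scaffold_6 mostly lie along the line in all 3 pools, apart from points at 0%.

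Large changes, of at least 50 percentage points with at least 20 reads in both pools, were found at 0.108%, 0.118% and 0.129% of members in the assimilated, nonassimilated and control pools of D907, against 1.13%, 0.0582% and 0.00834% of main-chromosome sites. In Mix experiment 1 they were found at 0.913%, 1.85% and 0.364%, against 10.8%, 16.2% and 0.525%. In experiment 2 they were found at 2.91%, 1.56% and 0.352%, against 24.1%, 16.0% and 0.218%. The order of the pools in Mix was the same among members and main chromosomes in each experiment.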

How the data were processed

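Genomic DNA of 12 pools of 100 females was sequenced by the authors. Per the submitters' processing notes BWA, GATK and dm6 were used. Versions and site filters are not given in the sources used here. The deposited tables give, per site, reference and alternative read counts of a derived pool and of P0, not normalized. They also hold the authors' p-values, ranks and q-values, which were not used. The pool of D208 was not analysed here. P0 counts were the same in the 3 tables that share a P0 (0 of 5739334 pairs differed).

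The alternative share is the alternative count over both counts. Each table was tested whole by Fisher's exact test (two-sided) and Bonferroni adjustment over its sites, and sites were called at an adjusted p below 1e-05. Replicate populations exist for Mix alone. The experiment number pairs its pools, since each experiment has a P0 of its own, and a Cochran-Mantel-Haenszel test stratified by experiment was the paired form. Intervals are Wilson 95% intervals. They and the p-values cover counting error only, since reads are not independent molecules. Depth was set against the median over 2L, 2R, 3L and 3R in the same pool.

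Named were the mitochondrial genome, the Y and its scaffolds, rDNA and the 8 other sequences with the most listed sites, the 3 members with the lowest p per comparison, the first 5 members changed the same way in both Mix experiments, and at most 5 genes per sequence. Others are said to be chosen after their values were seen. The members and lists were chosen with earlier results of these data known. Alternatives were other corrections, depth limits, counts scaled to a pool of 200 chromosomes, the control pool as baseline and other site sets. Genes came from the Ensembl 115 annotation and sequences from RefSeq. The scripts were tested on simulated data and used Matplotlib 3.10.9, SciPy 1.17.1, statsmodels 0.14.6, pandas 2.3.3, Numba 0.67.0, NumPy 2.4.6 and Python 3.11.15.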

Additional observations from a re-analysis of the deposited data

Results flagged for a closer look

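Some members were past the threshold in both Mix experiments but in opposite directions. In the assimilated pools there were 6 (0.0717% of the members listed in both), on 6 numbered scaffolds, where 1.04% of main-chromosome sites were called so. In the nonassimilated pools there were 15 (0.160%, against 1.61% of main-chromosome sites), of which 4 lay on Y_mapped_Scaffold_18 and 3 on the mitochondrial genome. At the mitochondrial sites 4422, 5063 and 11438 the change in the nonassimilated pool against P0 was -26.6, 61.0 and -23.3 percentage points in experiment 1, and 57.5, -18.8 and 56.0 in experiment 2. In the control pools there were 6 (0.0598%, against 0.00365% of main-chromosome sites), among them 4422 with 36.2 and -24.5 points and 11438 with 43.6 and -23.9 points in experiments 1 and 2. The difference between the experiments itself was not tested.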

How the results depend on the processing

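Counts of members past the threshold are given here in the order assimilated, nonassimilated and control for D907, Mix experiment 1 and Mix experiment 2. Each comparison listed 12072 to 19402 members before any depth limit. Apart from the replicate block, the share of all sites past the threshold was not computed under these settings. These counts are therefore given without a background. With Benjamini-Hochberg adjustment at 0.05 they were 970, 1114 and 808, then 3928, 5008 and 2257, then 2714, 3031 and 1562. With at most 2 times the autosomal median depth they were 12, 14 and 21, then 22, 55 and 13, then 77, 38 and 10. With counts scaled to 200 chromosomes they were 12, 14 and 20, then 23, 45 and 22, then 62, 29 and 5. With a 0 set to 10%, chosen after seeing the data, they were 8, 8 and 11, then 34, 65 and 15, then 79, 41 and 8. With control flies as the baseline, only sites listed for both pools were tested and adjusted over. Then 95 sites were called in the assimilated pool of Mix experiment 2. The other 5 such counts stayed within 1.5 times, as did all counts with at least 30 reads. Members changed in the same direction in both experiments numbered 0 in all 3 populations under the depth limit and with a 0 set to 10%. With the experiments as a replicate block 110 assimilated, 122 nonassimilated and 63 control members were called. With 1 experiment left out (without replicate 1 or 2) the counts were 62 to 126, 89 to 140 and 40 to 70. The share of members with both alleles in the assimilated pools of D907, Mix experiment 1 and Mix experiment 2 was 87.5%, 75.0% and 82.9% with at least 30 reads, 71.7%, 51.7% and 59.5% under the depth limit and 71.3%, 52.8% and 61.4% with at least 2 reads of the second allele. Over all sites listed for each pool it was 75.1%, 54.9% and 64.2% in the assimilated pools and 70.8%, 66.8% and 71.6% in P0. Each assimilated pool was then taken over its own table and P0 over all 3 tables. The site sets are unlike, so these values do not order the pools. Mean 2pq over these unlike sets was 0.242, 0.176 and 0.217 in the assimilated pools and 0.224, 0.220 and 0.236 in P0. Relative depth was 1.11 by the mean, against 0.472 by the median. The alternative with deposited q-values was not run. At the low depth of most members a change could pass the threshold only where it was large, and a 0 at a deep site is not shown to be absence.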

Other observations

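At 24 mitochondrial sites where nearly all reads of every pool carried the alternative allele, the nonassimilated pool of Mix experiment 1 had 217 reference reads of 20370 (1.07%, Wilson 95% interval 0.933% to 1.22%), and the other 11 pools had 0% to 0.121%. The highest single site of that pool had 4.11% reference reads. On 3Cen_mapped_Scaffold_31, chosen after its values were seen, the depth was 0.218 of the autosomal median in P0 of Mix experiment 1 and at most 0.160 in the other 11 pools.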
